A study of Mus musculus with 26 samples.

Results

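Eloa encodes elongin A, and its transcript in the oocyte transcriptome used by the study (identifier TCONS_00075468) is described here as 1 of the 38540 transcripts in the count table. It was chosen because it was lower in surrounded nucleolus (SN) than in non-surrounded nucleolus (NSN) oocytes. It also belongs to the classifier transcripts that the study selected on these oocytes. Its levels in the stages are therefore given as a description, without a test. RNA was measured in 26 single germinal vesicle (GV) oocytes, which are fully grown oocytes arrested before meiotic maturation. They came from the ovaries of 2 wildtype C57Bl6/Babr mice aged 12 weeks, called C and D. Cumulus cells were removed, DNA was stained with Hoechst at 5 µM for 10 min, and the stage was read from the stain around the nucleolus. NSN oocytes had no ring (9 oocytes, 5 from mouse C and 4 from mouse D), SN oocytes had a complete ring (16 oocytes, 9 from mouse C and 7 from mouse D), and 1 oocyte of mouse D with an incomplete ring was called intermediate. The study had prepared more oocytes than these. It left out those with too few reads and 2 that it took as outliers by clustering. Oocytes of 1 mouse are not separate animals, so every p-value below measures the spread between oocytes of 2 mice.

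Elongin A is the large subunit of elongin, a complex with elongin B and elongin C that shortens the pauses of RNA polymerase II during transcript elongation. The same protein can serve as the substrate receptor of a ubiquitin ligase with Cul5 and Rnf7, which acts on stalled RNA polymerase II. NSN oocytes are transcriptionally active and SN oocytes are largely silent, so that transcripts lost after silencing are not replaced until the embryonic genome is switched on.

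In GENCODE (mouse, build GRCm38), Eloa lies on the minus strand of chromosome 4, at chr4:136003368-136021763. Its coding transcript has 11 exons and 4708 bases, with 773 codons, and the 3′ UTR in exon 11 takes 2248 bases (47.7% of the transcript). The count table gives no coordinates for the assembled transcript, so its own ends in oocytes are not known here. An antisense gene of the plus strand, Gm13008, covers 472 bases of exon 11 within the 3′ UTR and 35 bases of exon 4 within the coding sequence, which together make 10.8% of the annotated transcript. The libraries were made by tagmentation of double-stranded cDNA, which does not mark strand, so reads of Eloa and Gm13008 cannot be told apart in these stretches. Gm24362, a short gene on the same strand, lies inside the first intron and shares no exon with Eloa. The coding stretch shared with Gm13008 is shown on the Eloa strand because a read from it could come from either gene.
Eloa exon 4, chr4:136010903-136010937: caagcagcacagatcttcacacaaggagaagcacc

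**Figure D1:**
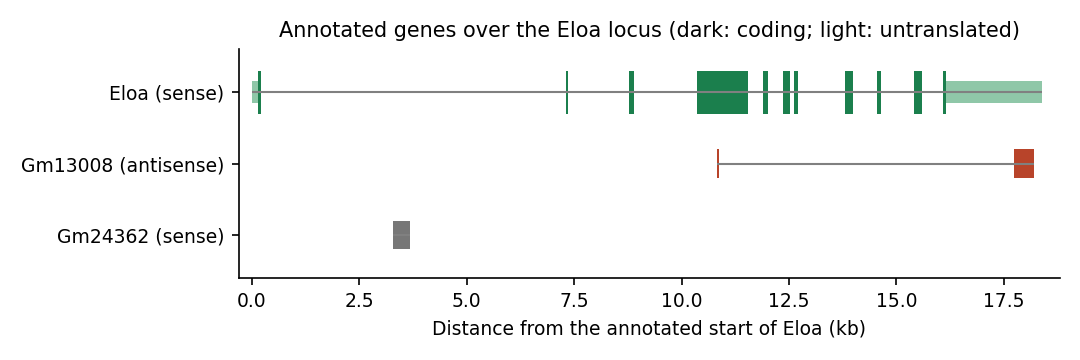
The map draws the annotated Eloa transcript and the 2 other genes over the locus by distance from the Eloa start (x axis, kb), with boxes for exons, dark green for coding and light green for untranslated sequence. The antisense exons of Gm13008 sit over exon 4 and near the end of exon 11, and Gm24362 sits in the first intron.

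The 3′ UTR of an oocyte transcript can carry short elements that are read by regulators of tail length and decay. Of these, 4 were searched on the transcript strand as DNA letters: AATAAA (the polyadenylation signal), TTTTAT (a cytoplasmic polyadenylation element, read by CPEB proteins), TATTTAT (the core of an AU-rich element, read by proteins of the ZFP36 family) and TGTANATA (read by Pumilio proteins). Each was found in the Eloa 3′ UTR, AATAAA at 2 places and the others at 1 place. The sites are shown on the Eloa strand with 11 bases on either side, with the element in capitals.
AATAAA, chr4:136003373-136003400: tcccatgtctaAATAAAaagcaaaaaaa
AATAAA, chr4:136005309-136005336: atagttttaatAATAAAtattgccccca
TTTTAT, chr4:136004845-136004872: gacctcagcagTTTTATaatcctagttt
TATTTAT, chr4:136005287-136005315: gcccccagatgTATTTATaataaccccag
TGTANATA, chr4:136003465-136003494: tggtcccaaaaTGTAAATAcaattttctat
The first AATAAA starts 22 bases before the annotated 3′ end, and the other starts 1958 bases before it. The TTTTAT site starts 1494 bases before that end, the TATTTAT site 1937 bases and the TGTANATA site 116 bases before it, and no site overlaps another. Among the last 2248 bases of 4565 annotated 3′ UTRs of at least that length, 91.8% held AATAAA, 82.1% TTTTAT, 42.3% TATTTAT and 38.1% TGTANATA. These matches describe the letters in the window, and binding was not measured.

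In NSN oocytes the level of Eloa, in counts per 1000000 counts of the library (CPM), was 46.0 ± 21.7 (SD, n = 9), with a lowest value of 23.5, a median of 38.7 and a highest value of 92.2. In SN oocytes it was 15.6 ± 4.47 CPM (SD, n = 16), with a lowest value of 7.36, a median of 16.2 and a highest value of 22.5. These levels rest on 70 to 248 counts per NSN oocyte and on 10 to 62 per SN oocyte. All 16 SN oocytes were below the lowest NSN oocyte, so the stages did not overlap among the oocytes that the study kept. Such a complete separation with SN lower was found for 66 (0.396%) of the 16657 transcripts tested, Eloa included, and 3 were separated the other way. As Eloa was chosen from this contrast, nothing is read from that share.

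The 5 NSN oocytes of mouse C had 32.2 (C-12), 42.2 (C-3), 35.5 (C-6), 23.5 (C-7) and 36.7 CPM (C-8). The 4 NSN oocytes of mouse D had 38.7 (D-11), 71.3 (D-14), 41.9 (D-30) and 92.2 CPM (D-34). D-34 and D-14 stood above every other NSN oocyte, and the remaining 7 lay between 23.5 and 42.2 CPM. Dixon's ratio did not flag D-34 against the spread between oocytes. Its gap to the next oocyte, D-14, was 0.304 of the range over the 9 NSN oocytes (critical value 0.493). Over the 4 of mouse D it was 0.390 (critical value 0.829). D-14 was itself high, so this ratio cannot tell whether D-34 and D-14 stood apart together. The total counts were 2538578 in D-14 and 2690652 in D-34, and those of the 9 NSN oocytes ran from 1886716 to 2983344.

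Among SN oocytes of mouse C, the levels were 15.9 (C-13), 11.8 (C-14), 19.01 (C-16), 10.2 (C-17), 16.5 (C-18), 7.36 (C-19), 15.4 (C-20), 12.3 (C-21) and 22.5 CPM (C-9). Among SN oocytes of mouse D they were 16.6 (D-10), 13.2 (D-12), 17.7 (D-13), 16.98 (D-16), 10.7 (D-27), 21.9 (D-28) and 22.04 CPM (D-9). No SN oocyte stood apart from the others, and Eloa was counted in all 16. The gap between the stages was narrow at its edge: the lowest NSN oocyte, C-7, lay 0.940 CPM above the highest SN oocyte, C-9. By counting error these 2 oocytes could not be ordered (18.3 to 29.6 CPM against 16.9 to 29.4). In all, 11 of the 16 SN intervals reached above the lower bound of C-7, while 3 of the 9 NSN intervals reached below the upper bound of C-9. Reads were not tagged by molecule, so these intervals cover counting error only.

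**Figure D2:**
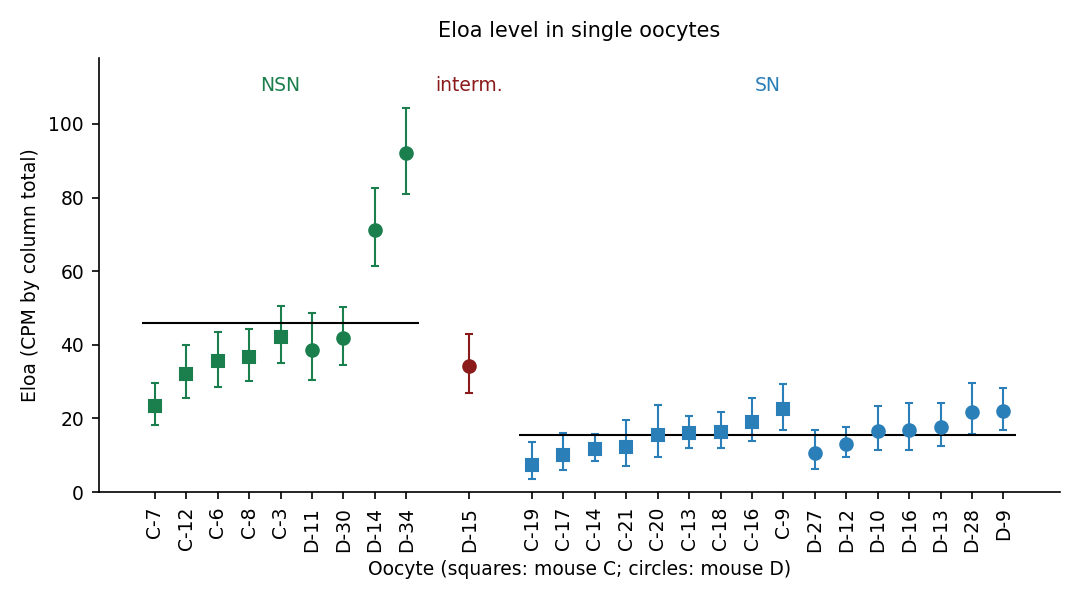
Each point is the Eloa level of 1 oocyte (y axis, CPM by column total) with its 95% Poisson interval, squares for mouse C and circles for mouse D, and horizontal lines mark the mean of the 9 NSN and the 16 SN oocytes. D-14 and D-34 stand above the other NSN oocytes, all SN oocytes lie at or below 22.5 CPM, and the intermediate oocyte sits at 34.2 CPM.

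The fitted log2 fold change of Eloa between the stages (SN minus NSN, edgeR with TMM scaling) was -1.50 ± 0.187 (SE, n = 9 NSN and 16 SN), a level 2.82-fold lower in SN. Over all 16657 tested transcripts the median log2 fold change was 0.0065, and 376 (2.26%) had a lower value than Eloa. Library size scaling, RLE factors, DESeq2, no filter on low counts, a mouse term and downsampling to the smallest library gave log2 fold changes between -1.57 and -1.45. Leaving out D-34 gave the smallest difference of all the fits with 1 oocyte left out, -1.30, and leaving out C-7 the largest, -1.58. In mouse C alone the log2 fold change was -1.17 ± 0.210 (SE, n = 5 NSN and 9 SN), or 2.25-fold lower in SN. In mouse D alone it was -1.81 ± 0.247 (SE, n = 4 NSN and 7 SN), or 3.50-fold lower.

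**Figure D3:**
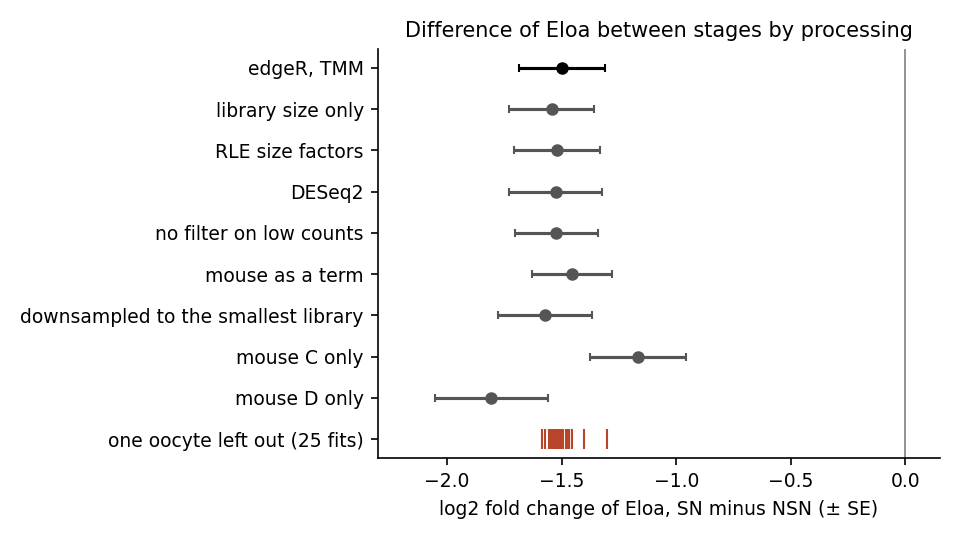
The log2 fold change of Eloa (x axis, SN minus NSN, with SE) is drawn for each way of processing the counts, for each mouse alone, and as ticks for the 25 fits with 1 oocyte left out. Every value lies between -1.81 and -1.17, with mouse D at the lower and mouse C at the upper end.

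The choice of Eloa did not use the mouse, so the difference between the mice was tested. The stage effect in mouse D minus that in mouse C was -0.66 ± 0.341 on the log2 scale (SE; edgeR interaction term, adjusted p = 0.829, unadjusted p = 0.0615), which does not show that the mice differed. No transcript passed this test after adjustment in edgeR (0 of 16657, 0.0%) or in DESeq2 (0). An unadjusted p under 0.05 was found for 996 (5.98%) in edgeR and for 1122 in DESeq2. The DESeq2 count comes from a larger set, the transcripts with at least 1 count, of which 28306 had a p in its stage fit. Over the fits with 1 oocyte left out the term ranged from -0.83 to -0.35 (adjusted p from 0.60 to 1.0), and without D-34 it was -0.35.

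Within a stage, the 4 subgroups in descending order were NSN of mouse D at 61.0 ± 25.4 CPM (SD, n = 4), NSN of mouse C at 34.003 ± 6.90 (SD, n = 5), SN of mouse D at 17.01 ± 4.15 (SD, n = 7) and SN of mouse C at 14.6 ± 4.65 (SD, n = 9). In NSN oocytes, mouse D was 0.75 higher than mouse C in mean log2 CPM (1.68-fold), with p = 0.0476 in a two-sided exact permutation test over 126 splits and 0.0952 after adjustment for the 2 stages tested. That difference did not pass the threshold after adjustment, and the ranges of the mice overlapped, with 2 of the 4 oocytes of mouse D above every oocyte of mouse C. Without D-34 it fell to 0.51. In SN oocytes, mouse D was 0.23 higher (1.18-fold, two-sided exact permutation test, p = 0.292, n = 9 of mouse C and 7 of mouse D), less than the SD of log2 CPM within mouse C (0.47) or mouse D (0.35). After adjustment, neither pair of neighbouring subgroups within a stage passed the test, which does not show that their levels were alike. The NSN difference of 0.75 was larger than the SD of log2 CPM within mouse C (0.30) and within mouse D (0.63).

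The SD of Eloa over NSN oocytes was 25.4 CPM in mouse D and 6.90 CPM in mouse C. The variance of the read counts, about those expected from each library's total, was set beside their Poisson variance. Poisson variance covers counting error only and neither amplification nor differences between cells. The ratio was 27.5 over NSN oocytes, 25.5 over those of mouse D and 4.09 over those of mouse C. Over SN oocytes it was 2.58. The coefficient of variation was 47.1% in NSN and 28.6% in SN oocytes. In edgeR's fit over both stages, the biological coefficient of variation of Eloa was 30.6%, beside 25.2% for the trend at its abundance.

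The intermediate oocyte (D-15) had 74 counts of Eloa, or 34.2 CPM (95% Poisson interval 26.9 to 42.9). It was above all 16 SN oocytes, above 2 NSN oocytes and below the other 7. With 1 oocyte of this kind, no comparison with either stage was tested.

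Of the 142 other genes in lists of the elongin complex, elongation factors, RNA polymerase II initiation and the RNA polymerase I and III systems, 6 had a named transcript that was tested, and none of these was another elongin subunit (Elob, Eloc) or Cul5 or Rnf7. Between the stages, 5 of these 6 were lower and 1 was higher in the SN stage by edgeR's test (adjusted p under 0.05), where 8.07% of all tested transcripts were lower and 5.41% higher (13.5% in all). Their names came only from lists that the study chose on these oocytes for their difference between stages or for their absence in SN, so the counts are not independent evidence of a direction. The median log2 fold change of the 6 was -1.57, beside 0.0065 for all tested transcripts. The genes without a name in the table were not examined.

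Of these transcripts, 3 belong to RNA polymerase I and III systems and had counts high enough to compare oocyte by oocyte. All 3 came from the classifier, whose transcripts were picked for their stage difference, so their direction was fixed by that choice and their values are given without a p. Ubtf, which loads RNA polymerase I on ribosomal RNA genes, had a median of 15.4 CPM over NSN oocytes (11.3 to 36.8) and of 7.62 CPM over SN oocytes (3.01 to 15.02), so that the stages overlapped. Its log2 fold change was -1.22 ± 0.220 (SE), with -1.89 in mouse D and -0.76 in mouse C. Snapc2, a subunit of the complex that starts transcription of small nuclear RNA genes, ranged from 6.36 to 22.1 CPM in NSN and from 0 to 6.94 CPM in SN oocytes, and its log2 fold change was -1.54 ± 0.279 (SE). Maf1, a repressor of RNA polymerase III, ranged from 9.54 to 31.5 CPM in NSN and from 2.16 to 17.5 CPM in SN oocytes, and its log2 fold change was -1.60 ± 0.260 (SE).

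The remaining 2 that were lower in SN were near the detection limit. Both were named through the list of transcripts missing in SN oocytes, whose rule requires 0 counts in at least 10 of the 16, so their lower level was fixed by that choice as well. Rprd1b, which binds the C-terminal domain of RNA polymerase II, had 2 to 13 counts per NSN oocyte and 0 to 4 per SN oocyte (log2 fold change -2.34 ± 0.533 SE). Snapc1, of the same complex as Snapc2, had 0 to 9 counts in NSN and 0 to 5 in SN oocytes (log2 fold change -1.99 ± 0.641 SE). The call of Snapc1 was lost with DESeq2 (adjusted p = 0.0562) and without the filter on low counts (edgeR adjusted p = 0.0525). At this depth, a count of 0 allows up to 2.21 CPM in the smallest library, with 3 counts taken as the upper limit. This limit differs from the 95% Poisson intervals given for Eloa.

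Gtf2b, the general factor TFIIB that joins RNA polymerase II to the promoter, was higher in SN and also came from the classifier. Its level was between 219 and 314 CPM in NSN and between 336 and 796 CPM in SN oocytes, without overlap, and its log2 fold change was 0.63 ± 0.111 (SE). It is 1 of the 3 transcripts (0.018%) with every SN above every NSN oocyte. By mouse the log2 fold change was 0.72 in C and 0.48 in D.

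**Figure D4:**
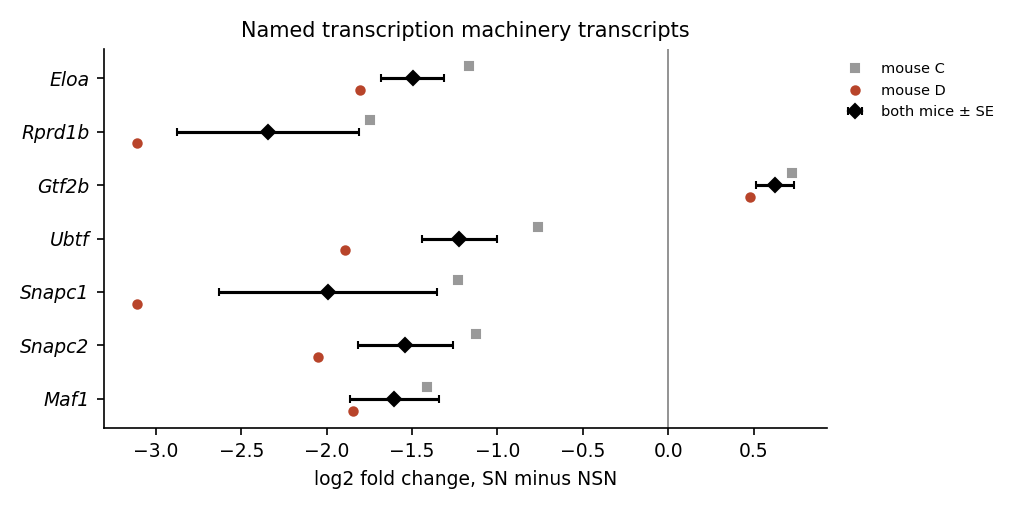
Log2 fold changes (x axis, SN minus NSN) of Eloa and the 6 other named transcripts of the transcription lists, with black diamonds and SE bars for both mice, grey squares for mouse C and red circles for mouse D. Of the 7, only Gtf2b lies above 0, and the values of mouse D are below those of mouse C for each.

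D-34 and D-14, the NSN oocytes with the most Eloa, held the highest Ubtf levels (36.8 and 28.8 CPM) and the highest Snapc2 levels (20.1 and 22.1 CPM) among the 9 NSN oocytes. The other genes of the lists did not all follow this order. Maf1 was highest in D-14 (31.5 CPM), while D-34 (21.9 CPM) ranked 5 of 9. Gtf2b ranked 2 in D-14 and 8 in D-34, Snapc1 ranked 1 and 4, and Rprd1b ranked 3 and 2, the last 2 genes at few counts.

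The classifier transcripts of the study were summarised by their mean, each scaled to a mean of 0 and unit SD over the 25 oocytes and Eloa left out. For those that fall with the stage, the mean was 1.69 in D-34 and 1.45 in D-14, against 0.56 to 1.07 in the other 7 NSN oocytes. For those that rise, D-34 had the lowest mean of the NSN oocytes (-1.57) and D-14 the highest (-0.32), so the 2 oocytes stood at opposite ends.

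Amh, the only named gene of a list of 13 granulosa and cumulus cell markers, was named through the list of transcripts missing in SN oocytes. It was counted in 7 of 9 NSN and 4 of 16 SN oocytes, a difference in the direction that this choice required. In NSN oocytes it reached 31 counts in C-8 (36.7 CPM of Eloa) and was at 0 in D-34 and at 2 in D-14. The 4 SN oocytes with Amh (10 counts in C-9, 2 in D-9, 1 in D-28 and 1 in C-16) were the 4 with the most Eloa, from 19.01 to 22.5 CPM, and those without Amh had at most 17.7 CPM. The part of other cells in the Eloa levels was not tested. The 7 named genes of 18 oocyte markers summed to 7295 to 10942 CPM in NSN and 7107 to 9145 in SN oocytes. These genes all came from the classifier, picked for a stage difference, with 4 lower and 3 higher in SN. Their sum therefore hides opposite changes. None of 9 markers of other ovarian cells and blood carried a name.

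To describe which transcripts followed Eloa from oocyte to oocyte, the mean of each stage was removed and log2 CPM deviations were correlated over the 25 oocytes. The points share their libraries, their depth and their mice, so these are descriptions. Over the 12061 transcripts that averaged 10 or more counts per oocyte, of which 131 carry a name, the median r was 0.0064 and the values from the 5th to the 95th percentile ran from -0.33 to 0.37. Ldhc, the germ cell form of lactate dehydrogenase, had the highest r of all (0.78), with 0.94 within the 9 NSN and 0.67 within the 16 SN oocytes. Without D-34 and D-14, r in the remaining 7 NSN oocytes was 0.92.

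Ldhc ranged from 19.4 to 81.9 CPM in NSN and from 3.52 to 17.4 CPM in SN oocytes. Its highest values, 81.9 and 76.2 CPM, were in D-14 and D-34, its lowest NSN value was in C-7, as for Eloa, and the intermediate oocyte had 19.9 CPM. The next named transcripts by r were Tusc2 (0.75), Patl2 (0.65), Aspg (0.64) and 1110065P20Rik (0.60), of which Patl2 encodes an RNA-binding protein of oocytes and Aspg an asparaginase. They ranked 4, 12, 13 and 30 among all compared, so most of the closest transcripts had no name, such as TCONS_00047085 and TCONS_00048709 (r of 0.76 each). Apart from Tusc2, Ldhc and these named transcripts came from the classifier, which the study chose for the stage difference. The 131 named transcripts compared included 61 falling and 35 rising classifier transcripts, so the ranking by name is largely one within that list. For Patl2 the value within NSN oocytes rested on the 2 high oocytes, since r went from 0.77 over 9 to 0.000185 over the 7 others. Tusc2 and Aspg had few counts per SN oocyte (1 to 22 and 0 to 25).

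**Figure D5:**
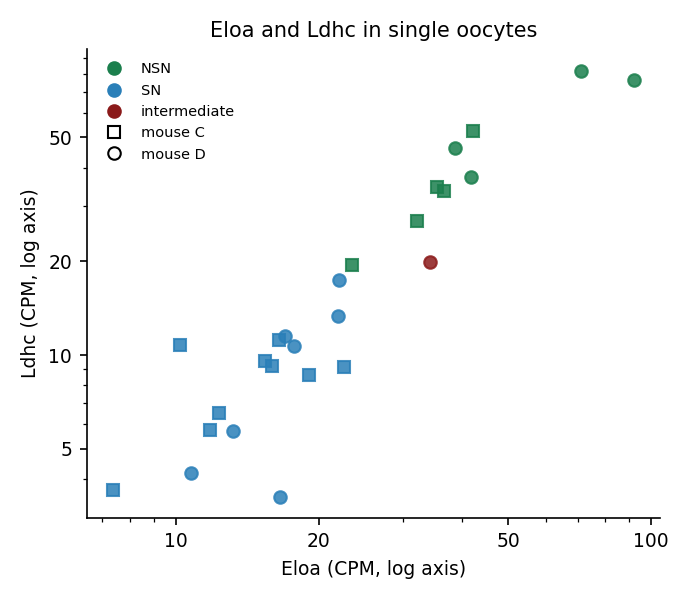
Each point is 1 of 26 oocytes, with its Eloa level (x axis, CPM, log scale) and its Ldhc level (y axis, CPM, log scale), coloured by stage and shaped by mouse. D-14 and D-34 are the 2 points at the upper right, and C-7 is the lowest NSN point for both genes, next to the highest SN oocytes.

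The named transcripts with the lowest r, which ran opposite to Eloa, were Oosp3 (r = -0.44), an oocyte-secreted protein gene, Tcl1b3 (-0.38) and Ier5l (-0.37). Each is a classifier transcript that rises with the stage. Of the transcription genes, Snapc2 had an r of 0.56, and within NSN oocytes its r went from 0.78 over 9 to -0.09 without D-34 and D-14. Maf1 had an r of 0.50 (0.57 over 9 NSN oocytes and 0.53 over those 7), while Ubtf (0.27) and Gtf2b (-0.16) lay within the 5th to 95th percentile of all transcripts compared. For Ubtf, r went from 0.78 over 9 NSN oocytes to 0.21 over those 7, and for Gtf2b from -0.04 to 0.27. With the stage difference kept, the highest r were those of Ldhc (0.93), Patl2 (0.88), 1110065P20Rik (0.87), Hsph1 (0.87), a heat shock protein gene, and Sdcbp2 (0.86), and these values include the contrast from which Eloa and the classifier transcripts were chosen.

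Among the 61 other classifier transcripts that fall with the stage and could be compared, 59 had an r with Eloa above 0 within stages (median 0.32), where 51.3% of all compared transcripts did. Among the 35 that rise, 30 had an r below 0 (median -0.20), beside the same 51.3% above 0 over all compared transcripts. Both sets were chosen by the study on these same oocytes, so they are not independent of them. The mean of the falling transcripts followed Eloa within NSN oocytes (r = 0.95, rho = 0.88, n = 9), and r was 0.73 when the 2 oocytes farthest from the median of that mean were left out. Within SN oocytes r was 0.42 (rho = 0.38, n = 16), and it was 0.12 with the 2 farthest left out. The mean of the rising transcripts had an r of -0.25 with Eloa in NSN oocytes (rho = 0.0), which became 0.31 without the 2 farthest, and of -0.42 in SN oocytes (rho = -0.44), which became -0.35. The log2 total count of the library had an r with Eloa of -0.07 in NSN and 0.37 in SN oocytes, and the number of detected transcripts one of -0.18 and 0.38. With the 2 farthest oocytes left out, these were -0.11 and 0.54 for the total count and -0.32 and 0.65 for detected transcripts. The part of depth in the SN values was not tested.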

How the data were processed

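RNA of 26 single GV oocytes was isolated on poly-dT beads, amplified as full-length cDNA and sequenced without molecular identifiers. The authors trimmed reads with Trim Galore, aligned them to GRCm38 with HISAT2 2.1.0 and counted them over an oocyte transcriptome with SeqMonk. The values they deposited are raw read counts per transcript that had not been normalized. A deposited table of their DESeq2 comparison (means, fold changes and p-values) was not used. The strand setting of the counting is not given in the sources used here. Stage and mouse came from the labels, 0 other columns were left unused, and 0 columns were identical. Total counts ranged from 1358383 to 3647827 per NSN or SN oocyte.

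Transcripts that reached 3 counts in 9 or more of the 25 NSN and SN oocytes were tested with edgeR 4.0.16 in R 4.3.3 (TMM, quasi-likelihood test, a model of stage alone, Benjamini-Hochberg over all 16657, threshold 0.05). Standard errors came from the quasi-F statistic. The intermediate oocyte was left out of the fits. DESeq2 1.42.0 was run as an alternative on transcripts with at least 1 count. Mice were compared within a stage by two-sided exact permutation tests of mean log2 CPM (TMM, prior count 2) in scipy 1.17.1. On simulated counts, edgeR recovered 188 of 189 tested 4-fold stage changes with 5 false calls among 16373 transcripts, and 78 of 197 changes of the stage effect between mice among 16355.

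Names covered 511 transcripts: 100 from the study's classifier list, 265 from its list of transcripts missing in SN oocytes, and 146 from Ensembl identifiers. Eloa, the gene lists and the tests were chosen with earlier results of these data known. Named were Eloa, every named and tested member of the transcription lists, the 5 named transcripts with the highest and the 3 with the lowest r within stages, the 5 with the highest r with the stage kept, and 2 without a name. Sequences and gene models came from GENCODE (GRCm38). Alternatives covered the scaling, the tool, the filter, the mouse, the depth, the prior count and the oocytes.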

Additional observations from a re-analysis of the deposited data

How the results depend on the processing

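No difference of Eloa between stages or mice reversed its direction under the alternatives run, and no test on Eloa changed its side of the threshold. Within NSN oocytes, r with Eloa did change sign for Snapc2, for Gtf2b and for the mean of the rising classifier transcripts when 2 oocytes were left out. The log2 fold change of Eloa ranged from -1.81 (mouse D alone) to -1.17 (mouse C alone) over 8 alternatives and from -1.58 to -1.30 with 1 oocyte left out. The stage effect in mouse D minus mouse C ranged from -0.65 to -0.55 over 5 alternatives and from -0.83 to -0.35 with 1 oocyte left out. Its smallest size came without D-34, and that oocyte thus moves it by more than any other. In NSN oocytes, mouse D minus mouse C ranged from 0.71 to 0.76 over 3 alternatives (adjusted p from 0.0952 to 0.254) and from 0.51 to 0.95 with 1 oocyte left out (adjusted p from 0.0571 to 0.214). In SN oocytes it ranged from 0.24 to 0.28 and from 0.13 to 0.33 (adjusted p from 0.138 to 0.504). Transcripts called between stages numbered 1774 to 2705, beside 2245 of 16657. The tested sets differed, so these counts are not comparable as shares. The lowest came from downsampled counts and the highest without the filter on low counts, and DESeq2 (2556) was also run without that filter. Of the named transcription genes, 4 or 5 were called lower and 1 higher, the lost call being that of Snapc1 with DESeq2 and without the filter. With a mean of at least 30 counts, 3 of the 5 named transcripts most like Eloa remained among the 5. The others, Tusc2 and Aspg, averaged fewer counts and so were removed by that limit itself. Column totals and Spearman's rho each kept all 5. The stages stayed separated with TMM scaling (highest SN 22.5 CPM, lowest NSN 23.7 CPM). Each oocyte has 1 stage, so oocytes form no pairs. Both mice gave oocytes of both stages, and with mouse as a term the log2 fold change of Eloa was -1.45 ± 0.174 (SE). Precision is limited by 10 to 62 counts of Eloa per SN oocyte and by 2 mice.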
